A study of Mus musculus with 8 samples.

Results

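The genes described here encode the non-collagen part of the extracellular matrix of the liver: elastic fibre proteins, small leucine-rich proteoglycans, matricellular proteins and other secreted glycoproteins. They were taken from a list of 36 symbols, and all 36 were found among the 54309 genes of the count table, 34 through the symbols in the authors' deposited table and 2 (Mfap5 and Aspn) through a reference list of names. After the filter on low counts 34 of them entered the test, since Mfap5 and Aspn were too low. Liver RNA came from male C57BL/6 mice fed a diet of fructose, palmitate and cholesterol for 16 weeks, which gives steatohepatitis, a fatty, inflamed and scarred liver. Between weeks 8 and 16 they were given intraperitoneal injections of control IgG (4 libraries) or of an antibody against CD47 (4 libraries, called antiCD47), at 200 µg per mouse. CD47 is a surface protein that restrains engulfment by macrophages through SIRPα. Both treatments shared the diet, and the study's title names the question of how a block of CD47 bears on the clearance of dying hepatocytes and on fibrosis. The design text speaks of 7 to 8 mice in each group and does not tie a library to an animal, so the p-values measure the spread between these libraries.

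In a scarred liver most of this matrix is laid down by activated stellate cells and portal fibroblasts, the mesenchymal cells of the organ. Elastic fibres form when elastin is deposited on a scaffold of fibrillin microfibrils with the help of fibulins, and small leucine-rich proteoglycans sit on collagen fibrils and control their width. Hepatocytes secrete fibronectin and vitronectin, the adhesive glycoproteins of plasma, so transcripts of the matrix do not all come from the same cells. In RNA of whole liver, fewer cells of a type and less RNA per cell cannot be told apart.

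In the antiCD47 livers 17 of the 34 tested genes fell, 3 rose and 14 gave no call (edgeR, two-sided quasi-likelihood test; the threshold was an adjusted p of 0.05, by Benjamini and Hochberg's method over 15472 genes). Over all genes tested 5.40% fell and 5.44% rose, 10.8% in all. The log2 fold changes of the 34 genes had a median of -0.68, beside -0.0064 over all genes tested, and 27 of the 34 were negative. Elastin (Eln), dermatopontin (Dpt), Mfap4, Mgp and Smoc2 were lower by 2.18-fold to 3.77-fold, while fibronectin (Fn1), Ecm1 and lubricin (Prg4) were higher by 1.67-fold, 1.29-fold and 3.60-fold. The groups did not overlap in 20 of the 34 genes, 17 of them lower in antiCD47 and 3 higher; of all genes tested 19.6% did not overlap, 10.1% lower and 9.51% higher.

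Single libraries decided how many of these genes passed. The number that fell was 6 without IgG 1, 4 without IgG 3, 0 without IgG 4 and 2 without antiCD47 3. No more than 1 rose in each of these 4 fits. Over all genes tested the same fits gave 83, 45, 0 and 4 genes lower, beside 836 with every library kept. Calls were thus lost across all genes and not only in the matrix set. Leaving out any other library gave 13 to 20 matrix genes lower, beside 388 to 1787 over all genes tested. Without antiCD47 2 these were 13 and 388, and without antiCD47 1 they were 18 and 1787. All 17 stayed lower, with edgeR p under 0.05 before adjustment, in every one of the 8 fits that left out a library. These 17 were picked for passing with every library kept, and the 8 fits reuse those libraries. Their p-values are therefore no independent check. Scaling by library totals moved the median of all genes to -0.19 and that of the 34 genes to -0.86, with 22 lower and 2 higher. Over all genes tested that scaling gave 3153 lower and 428 higher, so calls moved downward in general.

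**Figure D1:**
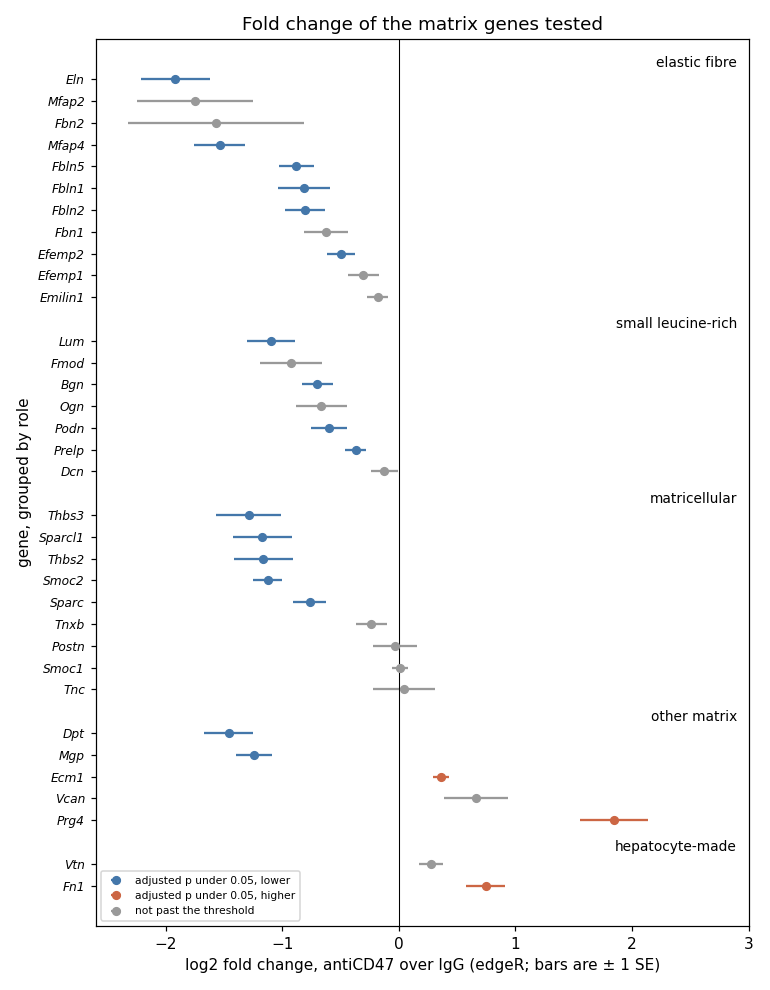
Log2 fold change of each tested matrix gene, antiCD47 over IgG, on the horizontal axis, with bars of 1 SE and genes grouped by role on the vertical axis. Blue points passed the threshold lower and orange points higher; every elastic fibre and small leucine-rich gene tested lies left of 0, and Fn1 and Vtn lie right of it.

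Total counts lay between 43691472 and 55477484 per library, and no pair of libraries in a group agreed within sampling noise. The hepatocyte marker Alb was at 42482 CPM in IgG and 46638 CPM in antiCD47. CPM (counts scaled to the TMM-corrected library size) is the unit of level. CPM per kb divides it by the length of the longest coding transcript, which allows levels of different genes to be compared. TMM factors were 1.03 to 1.11 in IgG and 0.895 to 0.989 in antiCD47. Small differences in CPM between the groups, as for Alb, therefore depend on the scaling.

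Promoter sequences are shown for 4 genes whose behaviour the results turn on and for which a RefSeq window was at hand: Dpt and Bgn, which fell, Ecm1, which rose, and Vtn, which is made by hepatocytes. Each is the stretch of 250 bases before the start of the gene (RefSeq, GRCm38.p6), written 5′ to 3′ on the gene's strand. Capitals mark TGANTCA (the AP-1 motif), GGAATG (the TEAD motif) and TATAAA (the TATA box), searched on both strands. The windows lie at chr1:164796413-164796662 on the plus strand (Dpt), chrX:73483351-73483600 on the plus strand (Bgn), chr3:95739570-95739819 on the minus strand (Ecm1) and chr11:78498870-78499119 on the plus strand (Vtn).
Dpt: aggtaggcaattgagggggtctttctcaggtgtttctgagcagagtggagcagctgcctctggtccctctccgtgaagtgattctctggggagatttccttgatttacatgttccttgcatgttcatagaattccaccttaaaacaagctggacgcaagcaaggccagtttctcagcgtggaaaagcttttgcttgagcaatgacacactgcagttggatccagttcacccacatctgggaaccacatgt
Bgn: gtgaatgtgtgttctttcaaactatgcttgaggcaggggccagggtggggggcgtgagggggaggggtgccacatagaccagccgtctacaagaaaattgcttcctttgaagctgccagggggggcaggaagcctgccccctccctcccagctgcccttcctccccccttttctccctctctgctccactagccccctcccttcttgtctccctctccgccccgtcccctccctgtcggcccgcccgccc
Ecm1: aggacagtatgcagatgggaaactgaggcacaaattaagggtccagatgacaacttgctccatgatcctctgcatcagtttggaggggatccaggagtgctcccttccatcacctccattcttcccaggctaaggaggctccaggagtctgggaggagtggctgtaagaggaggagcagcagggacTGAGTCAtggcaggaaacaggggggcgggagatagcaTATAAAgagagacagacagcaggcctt
Vtn: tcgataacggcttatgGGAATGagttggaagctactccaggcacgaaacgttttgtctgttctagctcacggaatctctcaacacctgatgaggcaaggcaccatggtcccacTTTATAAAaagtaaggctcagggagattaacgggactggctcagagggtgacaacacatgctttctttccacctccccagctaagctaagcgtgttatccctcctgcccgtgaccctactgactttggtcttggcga

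Of the 36 genes 24 had such a window, among them 11 of the 17 that fell. None of these 11 held TGANTCA or GGAATG, which 7.82% and 14.4% of the 27025 genes in the table hold. So few genes cannot tell 0 from such shares. Only 1 of them (Thbs2) held TATAAA, which 14.3% of all genes hold. Of 11 genes with a window and no call, 2 held TGANTCA, 3 GGAATG and 4 TATAAA. In Ecm1 TGAGTCA began 64 bases and TATAAA 27 bases before the start. In Vtn GGAATG began 234 bases before it, and its TATAAA letters on the 2 strands overlapped.

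Of 11 elastic fibre genes tested 6 fell and none rose, with a median log2 fold change of -0.81. Elastin, the rubber-like core of the fibre, was at 7.91, 7.04, 8.81 and 9.99 CPM in IgG 1 to 4 and at 3.32, 1.21, 1.45 and 2.96 CPM in antiCD47 1 to 4. The lowest IgG library stood above the highest antiCD47 library, and Eln fell by a log2 value of 1.92 ± 0.30 (SE; edgeR adjusted p = 0.016), the largest change of a gene that fell here. Mfap4, a microfibril-associated glycoprotein that binds elastin, was at 7.07, 5.87, 5.98 and 8.00 CPM in IgG and at 2.38, 1.55, 1.99 and 3.38 CPM in antiCD47. It too was separate between the groups (-1.54 ± 0.22, edgeR adjusted p = 0.0147).

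Some fibulins bring elastin onto microfibrils, and the fibulins that fell had log2 fold changes between -0.88 and -0.49. Fbln5, needed for elastic fibre assembly, was at 14.2, 11.9, 15.8 and 16.8 CPM in IgG and at 9.50, 6.16, 7.50 and 8.62 CPM in antiCD47 (-0.88 ± 0.15, edgeR adjusted p = 0.0166). Fbln1 (-0.81), Fbln2 (-0.80) and Efemp2 (-0.49), also called fibulin-4, passed as well and did not overlap between the groups. Efemp1, or fibulin-3, was at 27.3 ± 2.98 CPM in IgG and 22.1 ± 4.24 CPM in antiCD47 (mean ± SD of 4 libraries; edgeR adjusted p = 0.149). It was the elastic fibre gene with the highest level per length, 13.4 CPM per kb in IgG, beside 12.2 for Emilin1 and 2.19 for Eln.

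The microfibril scaffold itself gave no call. Fbn1, the main fibrillin, was at 9.80, 8.04, 7.22 and 12.2 CPM in IgG and at 6.35, 5.40, 4.77 and 7.69 CPM in antiCD47. The groups overlapped, since antiCD47 4 stood above IgG 3 (-0.63 ± 0.19, edgeR adjusted p = 0.0632; 0.00949 to 0.156 over the alternatives). Mfap2, a small microfibril glycoprotein, was separate between the groups at 0.764 to 1.61 CPM in IgG and 0.0604 to 0.610 CPM in antiCD47, with an edgeR adjusted p of 0.0521 that ranged from 0.00583 to 0.132 over the alternatives, past the threshold in 7 of 16. Fbn2, the fetal fibrillin, summed to 93 counts in IgG and 28 counts in antiCD47 (edgeR adjusted p = 0.181), and Mfap5 had 2 counts in all. Emilin1, which sits between elastin and microfibrils, was at 46.9 ± 4.70 and 41.3 ± 3.84 CPM (edgeR adjusted p = 0.193).

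Of 20 listed enzymes and binding partners of elastic fibres 11 fell, 1 rose and 8 gave no call. Lox (-1.32), which crosslinks elastin and collagen, its relatives Loxl1 (-1.24), Loxl2 (-0.62) and Loxl3 (-0.94), and the microfibril-bound Adamtsl2 (-1.26) were among those that fell. The latent TGF-beta binding proteins, which dock on fibrillin, fell in all 4 members: Ltbp1 (-0.69), Ltbp2 (-1.14), Ltbp3 (-0.75) and Ltbp4 (-0.40). Emilin2, a relative of Emilin1, was the gene that rose (1.10 ± 0.18, edgeR adjusted p = 0.016). The list had a median log2 fold change of -0.65.

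Of the 7 small leucine-rich proteoglycans tested 4 fell and none rose. Decorin (Dcn), a collagen-binding proteoglycan and the most abundant of the family at 181 ± 23.9 CPM per kb in IgG, was at 301, 266, 349 and 355 CPM in IgG and at 303, 247, 292 and 325 CPM in antiCD47. The groups overlapped almost fully (-0.12 ± 0.11, 95% interval -0.38 to 0.13, edgeR adjusted p = 0.475, and not past the threshold in any of 16 alternatives). Biglycan (Bgn), its closest relative, was at 342, 318, 348 and 432 CPM in IgG and at 257, 175, 219 and 236 CPM in antiCD47. No antiCD47 library reached the IgG range, and Bgn fell by a log2 value of 0.70 ± 0.13 (edgeR adjusted p = 0.0198).

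Lumican (Lum), which regulates collagen fibril assembly, was at 43.9, 35.5, 49.7 and 55 CPM in IgG and at 24.6, 13.7, 20.5 and 27.5 CPM in antiCD47 (-1.09 ± 0.21, edgeR adjusted p = 0.0202). Prelp, which anchors basement membranes to connective tissue, fell from 112 ± 9.41 to 86.3 ± 9.24 CPM (-0.37, edgeR adjusted p = 0.0342). Podn fell by 0.60, although IgG 2 at 6.95 CPM stood below antiCD47 1 at 7.30 CPM (edgeR adjusted p = 0.0413). Fibromodulin (Fmod, 5.89 to 8.45 CPM in IgG and 2.36 to 5.93 CPM in antiCD47) and osteoglycin (Ogn, 3.55 to 4.18 and 1.58 to 3.57 CPM) missed the threshold with edgeR adjusted p of 0.0519 and 0.0763. Fmod passed in 8 of 16 alternatives, 7 of them with all libraries kept, and Ogn in 3. Aspn had 42 counts over all libraries. In the authors' deposited table Fmod and Ogn passed (adjusted p = 0.00724 and 0.0318), as did Fbn1, Mfap2 and Efemp1 (0.0232, 0.00653 and 0.0487). Thus 25 of these 34 genes were past 0.05 there, including all 20 past it by edgeR. The share of all its 14432 genes past 0.05 is not given here. With DESeq2 in place of edgeR 3179 genes passed over all genes, beside 1678, and 21 matrix genes fell and 4 rose. The gain over edgeR can therefore not be told from a test that calls more genes in general.

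Within each library Bgn was set against Dcn per length. Its level was 82.5%, 86.7%, 72.4% and 88.3% of that of Dcn in IgG 1 to 4 and 61.6%, 51.7%, 54.6% and 52.6% in antiCD47 1 to 4. Lum was at 10.4 ± 0.635% of the Dcn level in IgG and 5.24 ± 0.944% in antiCD47 (mean ± SD of 4). These pairs were chosen after their values were seen, and the ratios are given without a test; neither depends on how libraries were scaled.

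**Figure D2:**
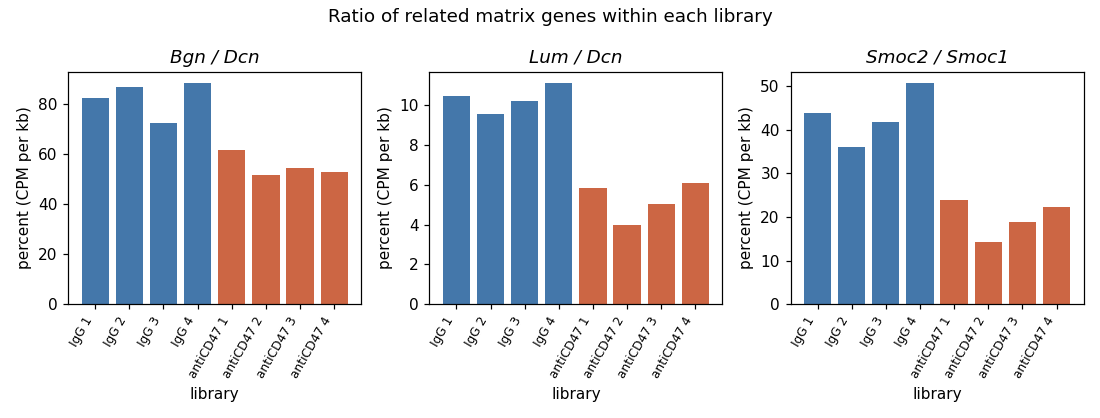
Level of Bgn and Lum as a percent of Dcn, and of Smoc2 as a percent of Smoc1 (CPM per kb, vertical axes from 0), in each of the 8 libraries (blue IgG, orange antiCD47). In each panel all 4 antiCD47 libraries lie below all 4 IgG libraries.

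Of the matricellular genes, whose products signal to cells more than they build fibres, 5 of 9 fell and none rose. Smoc2, a calcium-binding SPARC relative, ranked 8 of all 15472 genes by p. It was at 31.4, 27.3, 31.0 and 36.7 CPM in IgG and at 17.0, 11.6, 14.0 and 15.2 CPM in antiCD47 (-1.13 ± 0.13, edgeR adjusted p = 0.0113). Smoc1, its paralogue, gave no call and was at 88.4, 93.8, 91.9 and 89.3 CPM in IgG and at 88.4, 101, 92.0 and 84.5 CPM in antiCD47 (0.01 ± 0.07, 95% interval -0.14 to 0.16, edgeR adjusted p = 0.929). Smoc1 had the smallest spread of the 34 genes in IgG, an SD of 0.039 on the log2 scale, and its fold change turned to -0.18 with scaling by library totals and -0.054 with upper quartile scaling, never past the threshold. Smoc2 stood at 43.0 ± 6.10% of the Smoc1 level per length in IgG and at 19.8 ± 4.25% in antiCD47, again a pair chosen after its values were seen.

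Sparc, or osteonectin, a collagen-binding protein, was at 194, 155, 203 and 231 CPM in IgG and at 138, 92.2, 117 and 114 CPM in antiCD47. All 4 antiCD47 libraries lay below the IgG libraries (-0.76 ± 0.14, edgeR adjusted p = 0.0197). Its relative Sparcl1, or hevin, went from 27.9 ± 8.15 to 12.4 ± 3.59 CPM (-1.17 ± 0.25, edgeR adjusted p = 0.0265) and thrombospondin 2 (Thbs2), an inhibitor of vessel growth, from 10.5 ± 3.10 to 4.69 ± 1.44 CPM (-1.16 ± 0.25, edgeR adjusted p = 0.028). Thbs3 fell too (-1.29), with 340 counts in all; it shares exon sequence with Mtx1 on the other strand, which had 9742 counts, and whether strand was used in counting is not stated, so its value is uncertain.

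Periostin (Postn), tenascin C (Tnc) and tenascin X (Tnxb), which are also matricellular, gave no call. Postn, a product of activated fibroblasts, was at 26.8, 16.2, 30.0 and 27.9 CPM in IgG and at 28.5, 19.4, 27.7 and 22.9 CPM in antiCD47, with library 2 the lowest of each group (edgeR adjusted p = 0.915). Tnc, a glycoprotein of injured tissue, ranged from 2.87 to 4.68 CPM in IgG and from 2.83 to 6.07 CPM in antiCD47 (edgeR adjusted p = 0.918), with a sign that changed with the scaling. Tnxb, which links collagen fibrils, was at 28.0 ± 5.87 and 23.8 ± 1.16 CPM (edgeR adjusted p = 0.243). The 95% intervals of their log2 fold changes ran from -0.46 to 0.39 for Postn, from -0.55 to 0.64 for Tnc and from -0.53 to 0.059 for Tnxb.

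Among the remaining matrix genes 2 fell steeply. Mgp, the matrix Gla protein that keeps calcium from depositing in matrix, was at 6.71, 5.97, 6.63 and 7.02 CPM in IgG and at 3.56, 2.48, 2.19 and 2.90 CPM in antiCD47 (-1.24 ± 0.15, edgeR adjusted p = 0.0132, ranked 12 of all genes by p). Dpt, which binds decorin and speeds collagen fibril formation, was at 26.1, 21.8, 25.0 and 36 CPM in IgG and at 11.8, 7.05, 8.23 and 12.6 CPM in antiCD47 (-1.46 ± 0.21, edgeR adjusted p = 0.0147). Each was at least 1.68 times as high in the lowest IgG library as in the highest antiCD47 library. Versican (Vcan), a large chondroitin sulphate proteoglycan, was at 1.14 to 1.75 CPM in IgG and at 1.51, 3.54, 1.84 and 1.99 CPM in antiCD47 (0.66 ± 0.28, edgeR adjusted p = 0.132). Without antiCD47 2 its log2 fold change was 0.34.

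**Figure D3:**
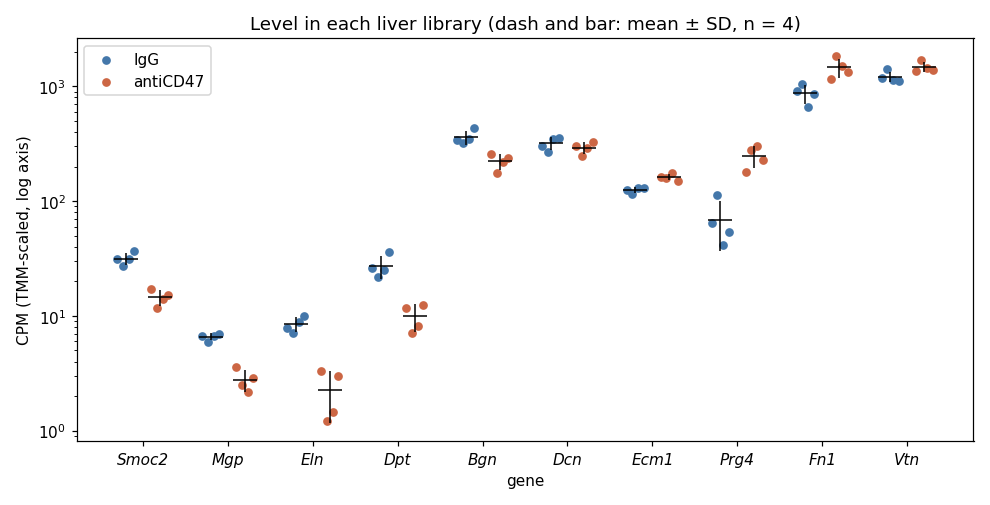
Level of 10 matrix genes in each liver library, in CPM on a log axis; points are libraries, dashes with bars are the mean ± SD of 4. Smoc2, Mgp, Eln, Dpt and Bgn are lower in all 4 antiCD47 libraries, Dcn and Vtn overlap, and Ecm1, Prg4 and Fn1 are higher in all 4.

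Ecm1 and Prg4 were the matrix glycoproteins outside the adhesive pair that rose. Ecm1, a secreted glycoprotein that keeps TGF-beta latent, was at 126, 115, 131 and 130 CPM in IgG and at 162, 158, 174 and 151 CPM in antiCD47 (0.36 ± 0.07, edgeR adjusted p = 0.0206). Its rise was the smallest of the 3, and with scaling by library totals it was 0.17 and no longer past the threshold (edgeR adjusted p = 0.117). Prg4, the lubricin of joint fluid, which the liver also secretes, was at 64.1, 114, 41.7 and 54.3 CPM in IgG and at 180, 279, 300 and 226 CPM in antiCD47. That was the largest change of the 34 genes in the upward direction (1.85 ± 0.29, edgeR adjusted p = 0.016), and in IgG the widest spread between libraries (SD 0.61 on the log2 scale). Exons of Prg4 and of Tpr overlap on opposite strands; Tpr had 34468 counts beside 62133 for Prg4. The same holds for Mfap4 with Mapk7 (1884 and 1397 counts) and for Efemp2 with Mus81 (3871 and 2275), so the values of these 3 genes carry the same doubt as that of Thbs3.

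Of the adhesive pair made by hepatocytes, fibronectin rose and vitronectin did not pass. Fn1, which binds integrins, collagen and fibrin, was at 905, 1057, 661 and 861 CPM in IgG and at 1166, 1830, 1514 and 1324 CPM in antiCD47. The groups did not overlap (0.74 ± 0.17, edgeR adjusted p = 0.0287). Vtn, which binds integrins and stabilises PAI-1, had the highest level per length of all 36 genes, 696 ± 75.6 CPM per kb in IgG. It was at 1193, 1405, 1138 and 1116 CPM in IgG and at 1364, 1690, 1457 and 1379 CPM in antiCD47, where IgG 2 stood above antiCD47 1 and antiCD47 4 (0.28 ± 0.10, edgeR adjusted p = 0.0985, and past the threshold in 2 of 16 alternatives). With scaling by library totals the log2 fold change of Vtn was 0.092 (edgeR adjusted p = 0.421) and that of Fn1 0.55 (edgeR adjusted p = 0.0286).

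Summed over each set, Fn1 and Vtn took 1798 to 2462 CPM in IgG and 2529 to 3520 CPM in antiCD47. The 34 other genes took 1471 to 1855 CPM in IgG and 1321 to 1497 CPM in antiCD47. With TMM scaling the first pair of ranges did not overlap and the second did. TMM factors were 1.03 to 1.11 in IgG and 0.895 to 0.989 in antiCD47. Whether these ranges overlap therefore depends on the scaling. Of these 34 genes 32 were tested, 17 fell and 2 rose, with a median log2 fold change of -0.73. Without Ecm1 and Prg4, which were taken out because they rose, the sums were 1243 to 1671 CPM in IgG and 883 to 1123 CPM in antiCD47. Within each library the sum of the 34 genes was 75.1%, 59.8%, 91.1% and 93.8% of that of Fn1 and Vtn in IgG 1 to 4 and 57.9%, 37.5%, 50.2% and 55.4% in antiCD47 1 to 4. All 4 antiCD47 libraries lay below IgG 2, the lowest of IgG; the set was chosen with these values known, and no test is given.

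For single genes the contrast was tested on 2 ratios to Dcn, the most abundant mesenchymal gene of the list per length, whose own log2 fold change of -0.12 lay nearer 0 than the median of -0.73. The log2 ratio of Fn1 to Dcn was 1.59, 1.99, 0.92 and 1.28 in IgG and 1.94, 2.89, 2.37 and 2.03 in antiCD47, a difference of 0.87 (exact permutation p = 0.0571, two-sided; adjusted over the 2 ratios 0.114). The log2 ratio of Vtn to Dcn went from 1.94 ± 0.34 to 2.34 ± 0.31 (mean ± SD of 4 libraries; two-sided exact permutation p = 0.143, adjusted 0.143). Neither passed; the smallest p this design allows is 0.0286. IgG 2 lay above antiCD47 1 in both ratios, and without IgG 2 the Fn1 to Dcn difference was 1.05 (exact permutation p = 0.0286).

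The levels per length changed order between the treatments. In IgG Dcn (181 CPM per kb) and Bgn (149) came before Fn1 (105), followed by Sparc (85.1) and Ecm1 (66.0), and Fn1 and Sparc were within 1 SD of each other. In antiCD47 Fn1 was at 175 ± 34.4 CPM per kb and Dcn at 166 ± 18.7, within 1 SD of each other. Bgn followed at 91.7 ± 14.2, Ecm1 at 84.9 ± 5.16, Prg4 at 57.8 ± 12.7 and Sparc at 50.1 ± 8.15. There Bgn and Ecm1 were also within 1 SD of each other, as were Prg4 and Sparc. Vtn stood above all of these genes in both treatments.

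Libraries differed within the treatments in the same sense for most of these genes. IgG 2 was the lowest of the IgG libraries in 22 of the 34 genes and IgG 4 the highest in 25. In antiCD47, library 2 was the lowest in 20. Fn1, Vtn, Prg4 and Smoc1 ran the other way in IgG, with IgG 2 the highest in each. In the other treatment antiCD47 2 was the highest for Fn1, Vtn, Smoc1 and Vcan. The summed CPM of the 34 genes other than Fn1 and Vtn was 1471 in IgG 2, below antiCD47 3 (1492) and antiCD47 4 (1497). That order depends on the TMM scaling.

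**Figure D4:**
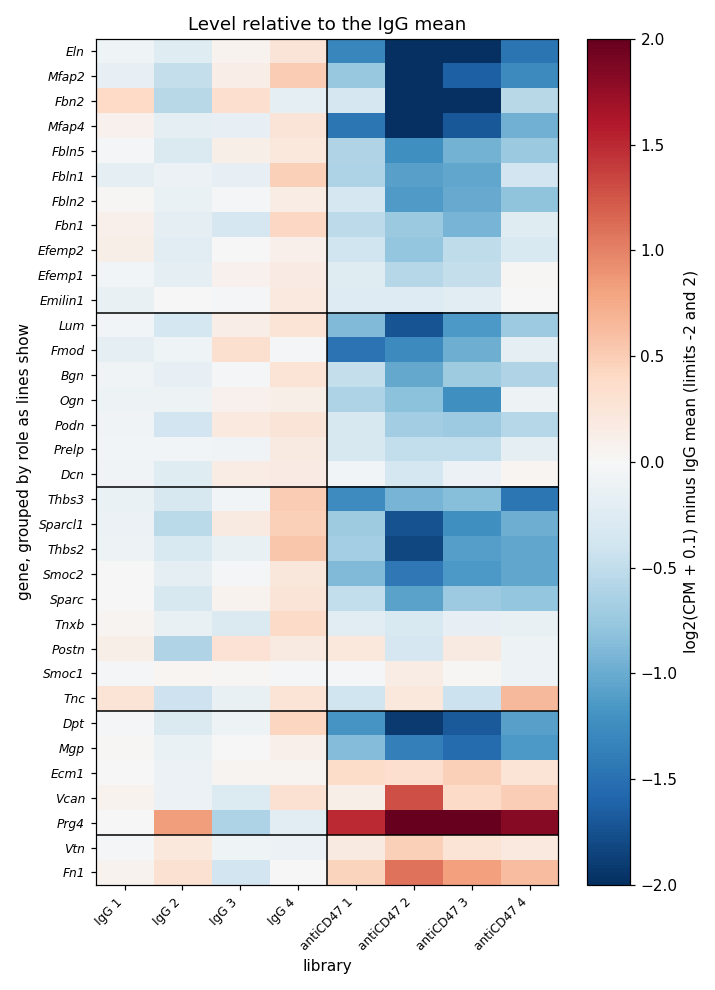
Level of the 34 tested genes (rows, grouped by role) in each library (columns), as log2(CPM + 0.1) minus the IgG mean, with colours limited at -2 and 2. Most rows turn blue in the 4 antiCD47 columns, while Ecm1, Vcan, Prg4, Vtn and Fn1 turn red; antiCD47 2 is the darkest column for many of them.

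Other glycoproteins and receptors of the matrix were lower in part. Of 27 further matrix glycoproteins 19 were tested, 6 fell and none rose; among them were Igfbp7 (-0.60), a matrix-bound growth factor binding protein, Ccn2 (-0.97), a matricellular gene induced by TGF-beta, Pcolce (-0.64), an enhancer of procollagen cleavage, and Nid1 (-0.48), which links basement membrane proteins. Of 14 integrin genes that bind this matrix 5 fell and 1 rose. Itga8 (-1.57), a receptor chain for fibronectin and nephronectin on mesenchymal cells, had the smallest p of them, and Itgb3 (0.91), a chain of the vitronectin receptor, was the gene that rose. Of 17 proteoglycans tested from a wider list, Agrn fell (-0.42) and Gpc4 (0.52) and Srgn (0.65) rose, and of 20 genes of glycosaminoglycan synthesis only Xylt2 (-0.35) passed. Their medians were 0.04 and 0.01.

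Markers of the cells that could hold these transcripts gave calls in both directions. Of 14 stellate cell markers 1 fell (Tcf21, -1.16) and 2 rose (Ngfr, 1.18, and Colec10, 0.83), and their summed level was 352 to 459 CPM in IgG and 340 to 428 CPM in antiCD47. Lrat, the vitamin A storage enzyme of stellate cells, was at 41.3 and 40.2 CPM on average (edgeR adjusted p = 0.878), and Reln at 67.2 and 75.4 CPM (edgeR adjusted p = 0.247). Of 8 portal fibroblast markers tested of 10 listed, 1 fell (Entpd2, -0.76) and 2 rose (Scara5, 1.19, and Pi16, 1.45), with sums of 185 to 201 and 153 to 193 CPM; Gli1 and Clec3b were too low to test. Smooth muscle markers had 1 gene lower and 1 higher of 7 tested, with sums of 82.1 to 94.8 and 69.6 to 85.3 CPM, and Pln was at 0 in all IgG libraries. No mesothelial marker passed of 9 tested, with sums of 12.3 to 17.1 and 9.05 to 32.4 CPM.

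Bile duct markers fell in 9 of 11 genes, with sums of 71.4 to 93.1 CPM in IgG and 34.7 to 52.6 CPM in antiCD47 that did not overlap, and Epcam (-1.62) and Tspan8 (-1.59) had the smallest p. Macrophage markers rose in 4 of 8, with sums of 246 to 442 and 432 to 713 CPM. No endothelial marker passed of 10, with sums of 162 to 227 and 180 to 207 CPM. Hepatocyte markers rose in 2 of 11 (Hnf4a, 0.58, and Fgb, 1.37) with sums of 65282 to 70321 and 70526 to 87632 CPM. That difference in sums depends on the TMM scaling. The part of these other cells in the matrix results was not tested.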

How the data were processed

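Poly(A) RNA of 8 liver libraries was sequenced (Illumina TruSeq, per the labels' protocols). The authors' deposited table gives estimated counts of each Ensembl gene as whole numbers, not normalized. The submitters' processing notes name Salmon 1.3.0, DESeq2 1.32.0 and GRCm39 without saying what each was used for. A second deposited table gives the authors' comparison: per the file headers, a mean signal, fold changes in log2 with errors, p-values and a rank score. It does not name its reference group, and of its values only adjusted p-values are printed.

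Counts were filtered with filterByExpr and TMM factors computed in edgeR 4.0.16 under R 4.3.3. Then 4 antiCD47 libraries were compared with 4 IgG libraries by glmQLFit and glmQLFTest on the treatment alone, adjusted over 15472 genes. The common biological coefficient of variation was 16.7%. Totals of 43691472 to 55477484 counts set the precision. CPM ratios were compared by an exact permutation test on log2 CPM with a prior count of 2 (scipy 1.17.1). The fit was tested on simulated data. Alternatives were other scalings and filters, DESeq2 1.42.0, limma voom 3.58.1, the replicate number as a block and leaving out each library. Promoters and transcript lengths came from GRCm38 references, an older build than that of the counts, and no position of a count is given. All 36 genes may be named, and those past the threshold with Fn1, Vtn and Dcn were to be shown by library; some of lower rank are given as means or ranges. The genes, lists and the rule for named genes were chosen with earlier results of these data known. Of 193 entries in the other lists, 1 matched no gene. Figures were drawn with matplotlib 3.10.9.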

Additional observations from a re-analysis of the deposited data

Results flagged for a closer look

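In 3 of the 68 sets of 4 libraries (34 genes in 2 treatments), 1 library stood apart from the other 3 by more than Dixon's 95% critical value on the log2 scale; chance alone gives about 1 in 20. Fbln1 was at 5.20 CPM in IgG 4, and at 3.22 to 3.44 CPM in the other IgG libraries. Prelp was at 126 CPM in IgG 4 as well, against 106 to 108 CPM in the others. Emilin1 was at 47.0 CPM in antiCD47 4, against 38.9 to 40.2 CPM in the other antiCD47 libraries. Without IgG 4 the log2 fold changes were -0.62 for Fbln1 and -0.31 for Prelp.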

How the results depend on the processing

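The number of genes past the threshold was 1678 and moved to 3581 with scaling by library totals (428 higher, 3153 lower) and to 3179 by DESeq2; upper quartile scaling gave 634 higher and 969 lower. Leaving out a library gave 2 to 3630 genes in all, 0 to 20 matrix genes lower and 0 to 3 higher. With all libraries the other settings gave 17 to 22 matrix genes lower and 2 to 4 higher, the 17 among them each time. The Fn1 to Dcn difference was 0.67 to 1.05 without 1 library, past 0.05 only without IgG 2 (1.05), and the Vtn to Dcn difference did not pass in any. Genes near 0 changed sign: Smoc1 was at -0.18 with library totals, -0.054 with upper quartile scaling and -0.039 to 0.051 without 1 library; Tnc was at -0.13, -0.020, -0.0073 (limma voom) and -0.20 to 0.19; Postn was at -0.20 to 0.065 without 1 library. The cause was not tested. The labels do not say whether the shared numbers 1 to 4 pair the libraries. Correlations of deviations between libraries of the same number were -0.023 to 0.16, none best with its own number, which does not settle it. With the replicate block 2425 genes passed, and 20 matrix genes fell and 4 rose. Within it the 2 ratios had exact permutation p of 0.125. That is the smallest p that swaps within the blocks allow, so neither ratio could pass. Depth limits Mfap5, Aspn, Fbn2, Mfap2 and Thbs3, each with 340 counts or fewer in all.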
